A study of Mus musculus with 12 samples.

Results

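The CDK inhibitors and the retinoblastoma family are the genes that hold the mammalian cell cycle in G1. They were followed here in C2C12 cells, a mouse myoblast line that leaves the cell cycle and forms myotubes when it differentiates. The study's methods describe medium with fetal bovine serum and the cytokine LIF, and mention no withdrawal of serum. The 10 members were taken by name: the CIP/KIP inhibitors Cdkn1a, Cdkn1b and Cdkn1c, the INK4 inhibitors Cdkn2a, Cdkn2b, Cdkn2c and Cdkn2d, and the pocket proteins Rb1, Rbl1 and Rbl2. They are 10 of the 46983 genes listed, and 8 of them were above 0 in at least 1 library and were tested with 18023 genes in all. RNA was sequenced from WT cells, which carry the PB-IP vector, and from PPARγ/+ cells, in which a PiggyBac transposon adds the coding sequence of PPARγ, the master transcription factor of fat cells. The study's methods describe puromycin selection after transfection with the PPARγ construct and do not mention it for the PB-IP cells. Each cell type was harvested before differentiation (0d) and on 5d of it, which gives 4 groups of 3 libraries and 12 libraries in all. The study describes the 3 libraries of a group as biological replicates, while neither it nor the labels say how their cultures were separated, so p-values measure the spread between these libraries.

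Progress through G1 depends on cyclin-dependent kinases. INK4 proteins bind Cdk4 and Cdk6 and keep D cyclins away from them, whereas CIP/KIP proteins bind complexes of cyclin and kinase, above all those of Cdk2. When the kinases are held back, pocket proteins remain unphosphorylated and bind E2F factors, so that genes for DNA replication are repressed. In muscle, Cdkn1a is known for its induction during differentiation, and Rb1 for its part in the permanent exit from the cycle.

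The libraries held 15557793 to 22013041 fragments on genes, as recovered from the steps of the FPKM (fragments per kilobase of transcript, scaled to the mapped fragments of the library). Pparg checked the labels: it averaged 6.53 ± 1.27 FPKM in WT_0d and 3.75 ± 0.760 in WT_5d, against 39.6 ± 10.1 in PPARγ/+_0d and 58.9 ± 29.3 in PPARγ/+_5d (SD, n = 3). Mki67, a marker of cycling cells, fell from 50.1 ± 9.42 to 4.87 ± 1.56 FPKM in WT cells and from 48.7 ± 12.4 to 4.02 ± 0.194 in PPARγ/+ cells. Myoblast and myotube markers summed to 965 to 4174 FPKM in WT_5d, 1102 to 1290 in PPARγ/+_5d, 136 to 314 in WT_0d and 61.8 to 98.4 in PPARγ/+_0d. The lowest sum of WT_5d belonged to replicate 3, a library that stood apart from the other two of its group. Of 10 adipocyte markers, Lep was at 0 throughout, and their sum lay at 62.0 to 165 FPKM in PPARγ/+_5d against 11.9 to 27.1 in the other groups. Of 6 fibroblast and other mesenchymal markers, which summed to 215 to 260 FPKM in WT_0d, 432 to 727 in WT_5d, 144 to 179 in PPARγ/+_0d and 728 to 812 in PPARγ/+_5d, Dcn had the highest mean on 5d, at 296 FPKM in WT and 479 in PPARγ/+ cells, and Thy1 was at 0 in WT cells and at most 0.0478 FPKM on average in PPARγ/+ cells. These markers were thus higher on 5d in both cell types, as was Cdkn1a, and their part in the changes between days was not tested. Markers of blood, endothelial and epithelial cells summed to at most 0.0885 FPKM. In such bulk RNA, fewer cells of a type and less RNA per cell cannot be told apart.

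The members covered a wide range of levels, which FPKM allows to be compared between genes because it is divided by length. Cdkn1a, which encodes p21, was the most abundant member in all 4 groups, and its libraries lay above those of every other member. On 0d of WT cells it was followed by Cdkn2c, Cdkn2d and Cdkn1b at 18.8, 18.3 and 15.6 FPKM, whose libraries overlapped from each to the next, and then by Rbl2, Rbl1 and Rb1 at 10.5, 8.01 and 6.16 FPKM, which did not overlap. On 5d of WT cells Cdkn1b, Rbl2, Rb1, Cdkn2d and Cdkn2c formed a chain of neighbours with overlapping libraries between 15.2 and 7.53 FPKM. Rbl1 and Cdkn1c were then the lowest of the detected members, at 2.02 and 1.45 FPKM, and their libraries overlapped. Cdkn2a and Cdkn2b were listed at 0 in all 12 libraries. The plot of levels by library shows these values for the 8 detected members.

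**Figure D1:**
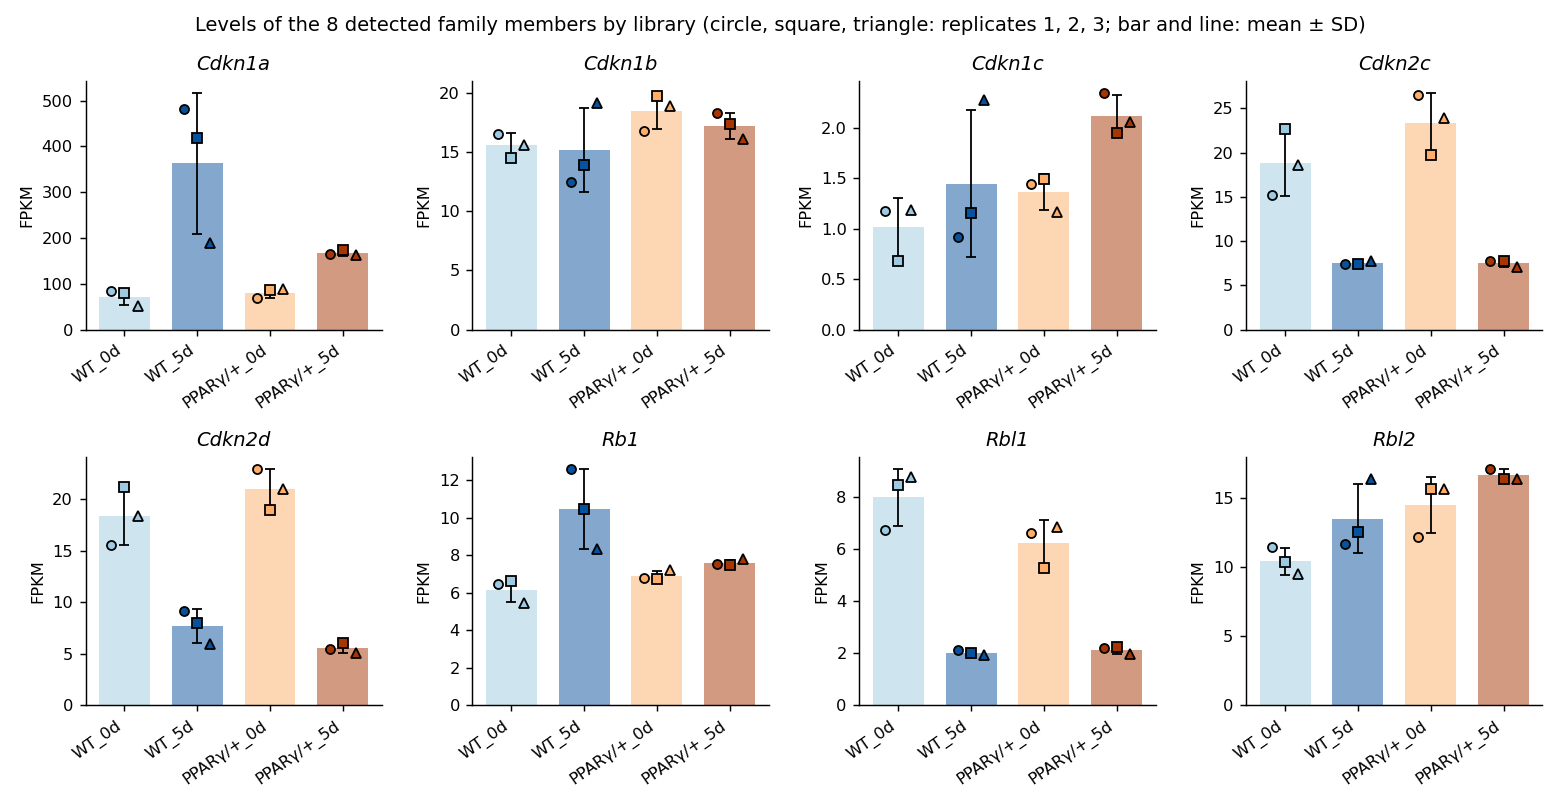
FPKM of each detected member in the 4 groups, on linear axes that start at 0; symbols are single libraries, bars are means and lines are SDs of 3 libraries. Cdkn1a stood at 71.4 FPKM in WT_0d and 363 in WT_5d, and Cdkn2c, Cdkn2d and Rbl1 were lower in every library on 5d than in every library on 0d of the same cells.

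From 0d to 5d, 4 members passed the thresholds in WT cells and 4 in PPARγ/+ cells, and they were in both cases Cdkn1a, which rose (1 of 8 tested members), and Cdkn2c, Cdkn2d and Rbl1, which fell (3 of 8). A gene was called between days at an unadjusted p of at most 0.05 and a change of at least 2-fold in limma's moderated test, the thresholds of the study's methods. In WT cells 8.94% of all tested genes were called as rising and 7.53% as falling, and in PPARγ/+ cells 9.11% and 6.06%. The median change on the log2 scale over the 8 tested members was 0.15 in WT cells, beside -0.08 over all tested genes, and 0.02 in PPARγ/+ cells, beside -0.10. The 0d and 5d libraries did not overlap for 6 of 8 members in WT cells and 7 of 8 in PPARγ/+ cells, where the same held for 51.1% and 58.1% of all tested genes. All 4 calls in each cell type were also made when the adjusted p was required to be at most 0.05.

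Cdkn1a (ENSMUSG00000023067, chr17:29090976-29100727, plus strand, GRCm38) encodes the CIP/KIP inhibitor p21, a target of p53 and of myogenic factors. It measured 84.6, 78.8 and 50.7 FPKM in the 3 WT_0d libraries and 481, 419 and 189 FPKM in WT_5d. It measured 67.9, 86.2 and 87.4 FPKM in PPARγ/+_0d and 164, 174 and 162 FPKM in PPARγ/+_5d. Each 5d library lay above each 0d library of its cells, and WT_5d spread far more widely than PPARγ/+_5d, with replicate 3 at less than the level of the other WT_5d libraries. The rise was 4.82-fold in WT cells (log2 2.27, SE 0.39, limma adjusted p = 0.00553) and 2.08-fold in PPARγ/+ cells (log2 1.06, SE 0.10, adjusted p = 3.23e-04). The PPARγ/+ rise lay close to the fold threshold and came to 0.94 on the log2 scale without PPARγ/+_0d replicate 1.

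On 5d Cdkn1a was lower in all 3 PPARγ/+ libraries than in all 3 WT libraries, with a difference of -1.01 on the log2 scale (95% interval -1.67 to -0.35), which did not pass the correction over all genes (adjusted p = 0.136). The difference between both rises, tested as the interaction of cell type with day, was -1.21 (SE 0.43, adjusted p = 0.272). Both values depended on single WT_5d libraries. Without replicate 3 the 5d difference was -1.43 (limma adjusted p = 0.00164) and the interaction -1.63 (adjusted p = 0.0112), and both were called. The 5d difference was -0.753 without replicate 1 (adjusted p = 0.420) and -0.853 without replicate 2 (adjusted p = 0.383). Calls over all genes also rose without replicate 3, from 199 to 796 on 5d and from 137 to 527 in the interaction. Myog, the myogenic factor that marks the onset of differentiation, measured 271, 215 and 90.0 FPKM in the same 3 WT_5d libraries, and 78.8, 85.9 and 90.3 in PPARγ/+_5d. Replicate 3 was thus low for Cdkn1a, Myog and the summed muscle markers alike, and the part of the muscle markers in the difference was not tested.

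Cdkn1a has 2 start sites in RefSeq (GRCm38.p6), and the 250 bases before each are printed because they show how the member that rose compares in its letters with Rbl1, which fell. The capitals mark matches to the p53 decamer, the unit that p53 binds in pairs, in the upstream window, at -73 to -64 and -51 to -42 from the start, and to a myogenic E-box in the downstream window, at -187 to -182.
Cdkn1a upstream start, chr17:29090729-29090978, plus strand: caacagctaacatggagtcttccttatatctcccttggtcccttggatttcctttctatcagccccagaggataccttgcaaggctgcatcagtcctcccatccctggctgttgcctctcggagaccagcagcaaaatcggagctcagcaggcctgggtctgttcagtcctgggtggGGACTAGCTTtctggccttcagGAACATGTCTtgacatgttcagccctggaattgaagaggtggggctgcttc
Cdkn1a downstream start, chr17:29093519-29093768, plus strand: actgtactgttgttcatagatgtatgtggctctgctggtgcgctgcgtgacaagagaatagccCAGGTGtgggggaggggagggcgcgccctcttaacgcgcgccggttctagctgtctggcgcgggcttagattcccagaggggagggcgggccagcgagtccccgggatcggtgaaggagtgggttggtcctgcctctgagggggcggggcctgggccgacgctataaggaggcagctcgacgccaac
The p53 decamer, searched after the values were seen, was held by 7.13% of the 32851 mouse promoter windows of the same length, and the myogenic E-box (CAGCTG or CACCTG, both strands) by 27.7%. Neither Cdkn1a window held an E2F site (TTTCCCGC, TTTCGCGC, TTTGCCGC or TTTGGCGC, both strands), which 1.86% of the windows held. A match of letters is a description of the sequence, and no binding was measured. An antisense gene, AC167363.2, overlaps 273 bases of Cdkn1a exons.

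Cdkn1b (ENSMUSG00000003031, chr6:134920401-134925513, plus strand) encodes p27, a CIP/KIP inhibitor controlled largely through its degradation. It averaged 15.6 ± 1.02 FPKM in WT_0d, 15.2 ± 3.54 in WT_5d, 18.5 ± 1.52 in PPARγ/+_0d and 17.3 ± 1.11 in PPARγ/+_5d (SD, n = 3). The libraries of 0d and 5d overlapped in both cell types. The change was -0.06 on the log2 scale in WT cells (95% interval -0.45 to 0.34) and -0.10 in PPARγ/+ cells (-0.29 to 0.09), both intervals lying within 2-fold, and the sign turned to 0.07 and 0.03 under median-ratio scaling of the libraries. WT_5d replicate 3, at 19.2 FPKM, was the highest WT_5d library for Cdkn1b, where the other two stood at 12.5 and 13.9 FPKM.

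Cdkn1c (ENSMUSG00000037664, chr7:143458339-143461050, minus strand) encodes p57, an inhibitor expressed from the maternal allele. It was the lowest of the detected members on 0d, with 33 to 100 fragments per library over all groups. It measured 1.17, 0.678 and 1.19 FPKM in WT_0d and 0.915, 1.15 and 2.27 in WT_5d. In PPARγ/+ cells it measured 1.44, 1.49 and 1.16 FPKM on 0d and 2.35, 1.95 and 2.06 on 5d. The days overlapped in WT cells, where the change was 0.42 on the log2 scale (95% interval -0.48 to 1.32), and did not overlap in PPARγ/+ cells, where it was 0.60 (SE 0.14, adjusted p = 0.0111), 1.52-fold and short of the fold threshold. The interaction was 0.19 (adjusted p = 0.901), so a difference between the cell types was not shown. An antisense gene, Gm44732, covers 625 bases of its exons and was not listed in the table.

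Within the CIP/KIP family, Cdkn1a took a larger share on 5d than on 0d in every library of both cell types. The 3 genes summed to 88.0 ± 18.2 FPKM in WT_0d and 379 ± 150 in WT_5d, and to 100 ± 12.3 and 186 ± 6.27 in PPARγ/+ cells (SD, n = 3). Cdkn1a made up 75.1 to 83.8% of the sum in the WT_0d libraries and 89.8 to 97.3% in WT_5d, against 78.8 to 81.3% and 88.9 to 90.0% in PPARγ/+ cells. The rest was almost wholly Cdkn1b, which contributed 18.3% in WT_0d and 4.96% in WT_5d.

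**Figure D2:**
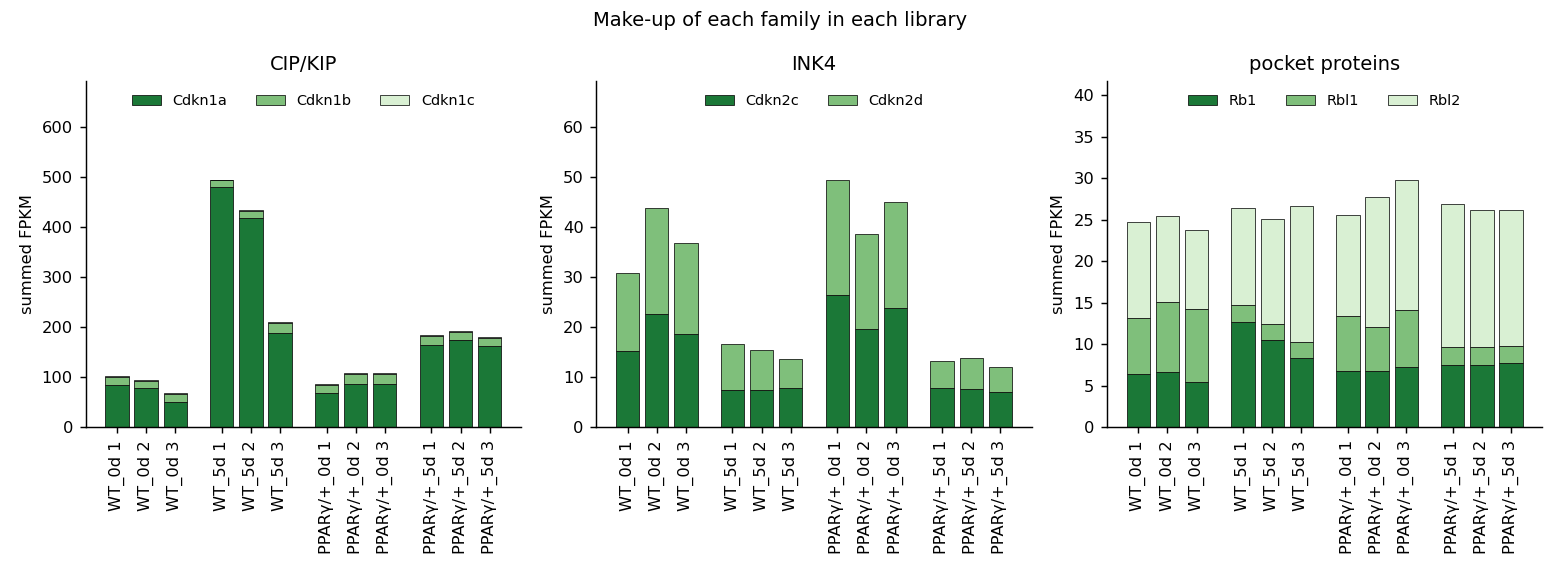
Stacked FPKM of the members of each family in each of the 12 libraries, by group and replicate; the 3 panels have their own linear axes from 0, and Cdkn2a and Cdkn2b, at 0, are not drawn. The CIP/KIP sum, mostly Cdkn1a, averaged 379 FPKM in WT_5d and 186 in PPARγ/+_5d, the INK4 sum averaged 15.2 and 13.0 there, and the pocket protein sum lay between 23.7 and 29.8 in all libraries.

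Among the INK4 genes, Cdkn2c and Cdkn2d were both expressed and fell from 0d to 5d in both cell types, whereas no fragment of Cdkn2a or Cdkn2b was found. Cdkn2c (ENSMUSG00000028551, chr4:109660876-109667189, minus strand) encodes p18. It measured 15.2, 22.6 and 18.6 FPKM in WT_0d and 7.42, 7.41 and 7.76 in WT_5d. It measured 26.5, 19.7 and 23.9 FPKM in PPARγ/+_0d and 7.77, 7.70 and 7.03 in PPARγ/+_5d. On 5d the 6 libraries of both cell types lay within 7.03 to 7.77 FPKM, below every 0d library. The fall was -1.29 on the log2 scale in WT cells (SE 0.14, adjusted p = 0.00126) and -1.62 in PPARγ/+ cells (SE 0.11, adjusted p = 8.87e-05). The cell types differed by -0.01 on 5d (95% interval -0.31 to 0.29), and the interaction was -0.32 (adjusted p = 0.563).

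Cdkn2d (ENSMUSG00000096472, chr9:21288410-21291407, minus strand) encodes p19INK4d. It measured 15.5, 21.1 and 18.3 FPKM in WT_0d and 9.14, 7.99 and 5.91 in WT_5d. It measured 22.9, 19.0 and 21.0 FPKM in PPARγ/+_0d and 5.43, 6.07 and 5.08 in PPARγ/+_5d. No 5d library reached the level of a 0d library of its cells, and on 5d WT replicate 3 lay within the PPARγ/+ range while the other two WT libraries lay above it. The fall was -1.26 on the log2 scale in WT cells (SE 0.19, adjusted p = 0.00349) and -1.90 in PPARγ/+ cells (SE 0.10, adjusted p = 3.08e-05). The interaction was -0.65 (SE 0.22, adjusted p = 0.261), and without WT_5d replicate 3 it was -0.82 and was called (adjusted p = 0.0400). On 5d the cell types differed by -0.449 with all libraries (limma adjusted p = 0.203). This difference was -0.313 without WT_5d replicate 1 (adjusted p = 0.561) and -0.409 without replicate 2 (adjusted p = 0.458).

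The INK4 sum was 37.1 ± 6.51 FPKM on 0d and 15.2 ± 1.46 on 5d in WT cells, and 44.3 ± 5.38 and 13.0 ± 0.845 in PPARγ/+ cells (SD, n = 3). Cdkn2c made up 50.5 ± 1.10% of it in WT_0d and 49.9 ± 6.19% in WT_5d. In PPARγ/+ cells its share was 52.6 ± 1.40% on 0d and 57.6 ± 1.54% on 5d. Across the 12 libraries Cdkn2c and Cdkn2d followed each other with a Pearson r of 0.961 on the log2 scale, a description over 4 groups of 3 libraries that share the day of harvest.

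Cdkn2a (ENSMUSG00000044303, chr4:89274471-89294653, minus strand), which encodes p16INK4a and the p53 activator ARF, and Cdkn2b (ENSMUSG00000073802, chr4:89306299-89311039, minus strand), which encodes p15, had 0 fragments in all 12 libraries. A count of 0 allows up to 3 fragments per library, which at these depths corresponds to 0.0982 to 0.138 FPKM for Cdkn2a and 0.0828 to 0.116 FPKM for Cdkn2b, limits that cover counting error alone. Neither gene shares exon bases with another annotated gene. A listing at 0 in every library was the case for 4314 of 21560 protein-coding genes, or 20%.

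The genes around them were read as well. Of all 46983 listed genes, coding or not, 27138 were above 0 in at least 1 library and the rest were at 0 throughout. From Cdkn2a to Dmrta1, over 420 kb, all 7 annotated genes that the table lists had 0 fragments in all 12 libraries, and 3 of these are protein-coding. On the other side, 93.4 kb away, Mtap, an enzyme of methionine salvage, had 1104 to 3698 fragments per library. Other genes on that side, such as Ifna1, Ifna4 and Tgif2-ps1, were also at 0 in all 12 libraries. Gm12606, the nearest to Cdkn2a on that side, had 0 to 10 fragments per library. Mtap averaged 42.9 ± 5.82 FPKM in WT_0d and 18.8 ± 1.47 in WT_5d, and 32.7 ± 5.46 and 24.3 ± 0.332 in PPARγ/+ cells. DNA was not measured in these cells. The plot of the Cdkn2a neighbourhood gives the range of every listed gene up to Klhl9, which had 846 to 1392 fragments.

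**Figure D3:**
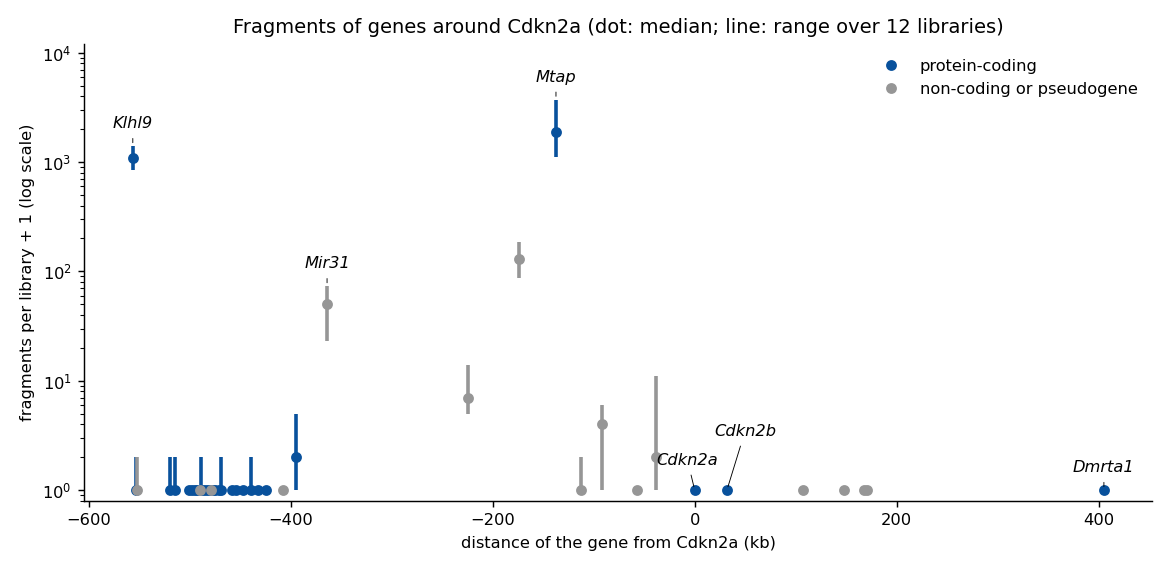
Fragments per library plus 1, on a log axis, for each listed gene around Cdkn2a against its distance from Cdkn2a in kb; dots are medians and lines the range over 12 libraries. Klhl9 and Mtap stand at 846 to 1392 and 1104 to 3698 fragments, and the 7 genes from Cdkn2a to Dmrta1 lie on the line that marks 0 fragments. Genes on the side of Mtap, such as Ifna1 and Tgif2-ps1, lie on this line as well.

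Among the pocket proteins Rbl1 fell in both cell types, while the sum of the 3 lay between 23.7 and 29.8 FPKM in all 12 libraries. Rb1, Rbl1 and Rbl2 encode pRB, p107 and p130, of which p107 is known from cycling cells and p130 from resting ones. The mean sum was 24.6 ± 0.875 FPKM in WT_0d, 26.0 ± 0.858 in WT_5d, 27.7 ± 2.10 in PPARγ/+_0d and 26.4 ± 0.421 in PPARγ/+_5d (SD, n = 3). Within it, Rbl1 passed from 32.6 to 7.77% in WT cells and from 22.7 to 8.10% in PPARγ/+ cells. The ratio of Rbl2 to Rbl1 had a median of 1.23 in WT_0d (range 1.08 to 1.70) and 6.24 in WT_5d (5.53 to 8.47). In PPARγ/+ cells it was 2.28 on 0d (1.84 to 2.96) and 7.76 on 5d (7.35 to 8.35). The 5d range lay above the 0d range in both cell types. On 0d the PPARγ/+ range lay above the WT range, and on 5d the ranges overlapped.

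Rbl1 (ENSMUSG00000027641, chr2:157145893-157204534, minus strand) fell the most of all members in WT cells. It measured 6.76, 8.48 and 8.80 FPKM in WT_0d and 2.11, 2.01 and 1.93 in WT_5d. It measured 6.62, 5.29 and 6.88 FPKM in PPARγ/+_0d and 2.21, 2.23 and 1.97 in PPARγ/+_5d. All 6 libraries of 5d lay between 1.93 and 2.23 FPKM, under all those of 0d. The fall was -1.93 on the log2 scale in WT cells (SE 0.13, adjusted p = 2.63e-04) and -1.50 in PPARγ/+ cells (SE 0.12, adjusted p = 1.55e-04), and the interaction was 0.43 (adjusted p = 0.374). On 0d the cell types overlapped, and their difference of -0.35 did not pass the correction (adjusted p = 0.138).

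The 250 bases before the Rbl1 start site in RefSeq (GRCm38.p6) are shown because, of the 6 detected members with such a window, this was the only one to hold an E2F site. The capitals mark the E2F site TTTCGCGC at -18 to -11 and a myogenic E-box, CAGCTG, at -183 to -178.
Rbl1, chr2:157204535-157204784, minus strand: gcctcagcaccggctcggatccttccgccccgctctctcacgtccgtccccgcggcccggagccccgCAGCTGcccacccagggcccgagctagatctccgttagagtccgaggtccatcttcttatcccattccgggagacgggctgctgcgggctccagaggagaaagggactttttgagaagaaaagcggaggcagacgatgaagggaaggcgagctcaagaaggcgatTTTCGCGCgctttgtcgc
Windows were at hand for 8 of the 10 members, Cdkn1c and Rb1 being without an entry. The window of the upstream Cdkn2a start held the other E2F site, TTTCCCGC at -99 to -92, although its gene was at 0. The cell cycle homology region (TTTGAA, both strands), bound by the MuvB complex in many cell cycle genes, occurred in the windows of Cdkn2b and Rbl2 and in 16% of all windows. The windows of Cdkn1b and Cdkn2c held none of the motifs searched, and Cdkn2d held 1 p53 decamer. In the annotation used, the window of the upstream Cdkn2c start lies wholly in exons of that gene. The same holds for 198 of the 250 bases of the Cdkn2d window and for 0 of the Rbl1 window.

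Rb1 (ENSMUSG00000022105, chr14:73183673-73325822, minus strand) encodes pRB, the founding tumour suppressor of the family. It measured 6.44, 6.60 and 5.44 FPKM in WT_0d and 12.6, 10.5 and 8.32 in WT_5d. It measured 6.77, 6.75 and 7.20 FPKM in PPARγ/+_0d and 7.50, 7.48 and 7.78 in PPARγ/+_5d. Days did not overlap in either cell type, and on 5d each WT library was above each PPARγ/+ library. In WT cells the change was 0.74 on the log2 scale (SE 0.17, adjusted p = 0.0152), 1.67-fold and thus short of the fold threshold. In PPARγ/+ cells it was 0.14 (95% interval -0.01 to 0.28, adjusted p = 0.105). This value depended on scaling: it was 0.263 under median-ratio scaling (limma adjusted p = 0.0114) and 0.271 under quantile normalization (adjusted p = 0.00830). Both stayed under 2-fold.

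The interaction for Rb1 was -0.61 (SE 0.18, adjusted p = 0.193), and the difference on 5d was -0.44 (adjusted p = 0.134). Without WT_5d replicate 3 the interaction was -0.76 and was called (adjusted p = 0.0197). Leaving out another WT_5d library weakened the difference on 5d. It was -0.295 without replicate 1 (limma adjusted p = 0.389) and -0.428 without replicate 2 (adjusted p = 0.321). As with Cdkn1a, WT_5d replicate 3 was the lowest WT_5d library for Rb1. Over the 12 libraries Rb1 and Cdkn1a followed each other with a Pearson r of 0.957. Exons of Rb1 overlap those of Rcbtb2 by 488 bases and of Lpar6, which lies in an Rb1 intron, by 408 bases, and these genes had 353 to 725 and 86 to 172 fragments per library against 751 to 1933 for Rb1.

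Rbl2 (ENSMUSG00000031666, chr8:91070057-91123844, plus strand) encodes p130, the pocket protein of the DREAM complex in resting cells. It measured 11.5, 10.4 and 9.50 FPKM in WT_0d and 11.7, 12.6 and 16.4 in WT_5d. It measured 12.2, 15.7 and 15.7 FPKM in PPARγ/+_0d and 17.2, 16.4 and 16.4 in PPARγ/+_5d. Each PPARγ/+ library was above each WT library of the same day, narrowly so on both days. The differences between the cell types were 0.46 on 0d (SE 0.13, adjusted p = 0.0694) and 0.31 on 5d (SE 0.13, adjusted p = 0.296), and the changes between days were 0.36 in WT cells (adjusted p = 0.101) and 0.21 in PPARγ/+ cells (adjusted p = 0.147). None of the 4 values passed its thresholds. Under median-ratio scaling the change between days was 0.486 in WT cells (limma adjusted p = 0.0222). In PPARγ/+ cells it was then 0.337 (adjusted p = 0.0224), and both stayed under 2-fold. Rbl2 shares 693 exon bases with Aktip and 892 with Gm45464, both on the other strand.

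No member was called between PPARγ/+ and WT cells on either day or in the interaction. A call between cell types asked for an adjusted p of at most 0.05 and a difference of at least 2-fold, and a call in the interaction for the adjusted p alone. Over all tested genes, 0.571% were called as higher and 1.39% as lower in PPARγ/+ cells on 0d, 0.571% and 0.533% on 5d, and 0.76% in the interaction. At an unadjusted p under 0.05, 3 members on 0d, 4 on 5d and 4 in the interaction were counted by limma, beside 3831, 2766 and 2164 of all tested genes, and a voom fit on the recovered fragments also called 0 members in these 3 comparisons. The 4 members of the interaction were Cdkn1a, Cdkn2d, Rb1 and Rbl1. PPARγ/+ and WT libraries did not overlap for 3 of 8 members on 0d and for 3 of 8 on 5d, beside 26.8% and 18.5% of all tested genes. Without WT_5d replicate 3, Cdkn1a was called on 5d, and Cdkn1a, Cdkn2d and Rb1 in the interaction. In that setting 796 of all 18023 tested genes were called on 5d and 527 in the interaction, beside 199 and 137 with all libraries.

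**Figure D4:**
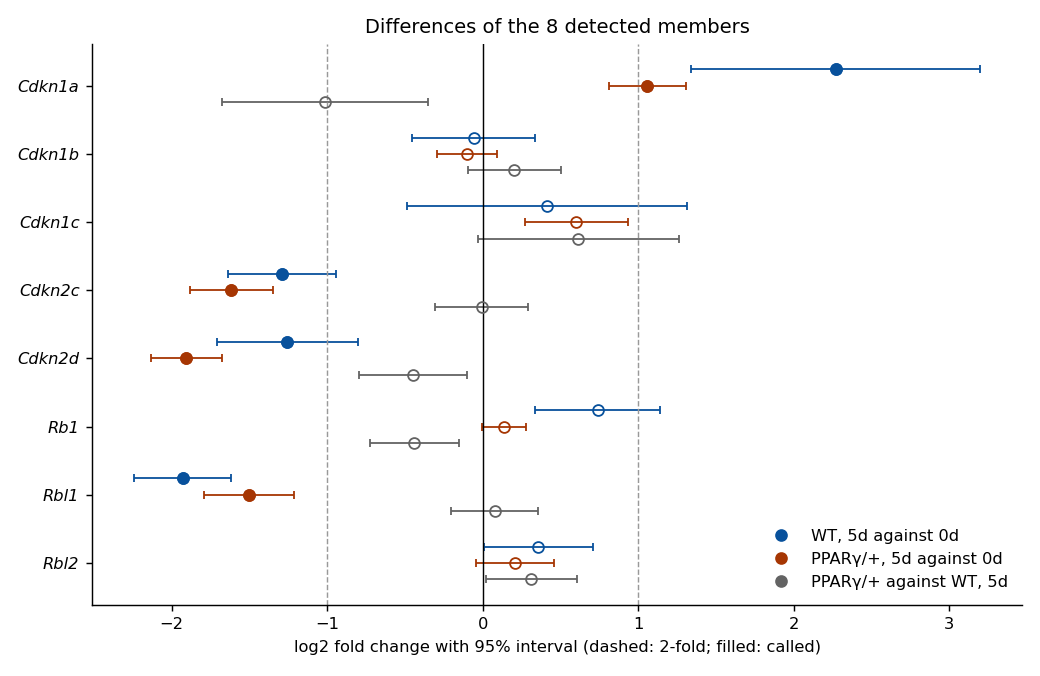
Differences on the log2 scale with 95% intervals for the 8 detected members: 5d against 0d in WT cells and in PPARγ/+ cells, and PPARγ/+ against WT on 5d, which shares its libraries with the other comparisons; filled dots passed the thresholds and dashed lines mark 2-fold. Cdkn1a stands at 2.27 and 1.06, Cdkn2c, Cdkn2d and Rbl1 lie between -1.26 and -1.93, and no grey dot is filled.

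The genes that work with these members were counted list by list, as a description. Over all tested genes, 8.94% were called as rising and 7.53% as falling in WT cells, and 9.11% and 6.06% in PPARγ/+ cells. Of 12 cyclins and their kinases, 1 rose and 9 fell in WT cells (median -1.79 on the log2 scale), and 0 rose and 7 fell in PPARγ/+ cells (median -1.31). The list holds 8 genes of G1, the D and E cyclins with Cdk2, Cdk4 and Cdk6, of which 1 rose and 5 fell in WT cells and 0 rose and 3 fell in PPARγ/+ cells. The other 4, Ccna2, Cdk1, Ccnb1 and Ccnb2, act in S phase and mitosis, and all 4 fell in both cell types, a split made after the values were seen. Ccnd3, the D cyclin of differentiating muscle, rose from 7.05 ± 0.958 to 20.2 ± 8.71 FPKM in WT cells (log2 1.41, adjusted p = 0.0197) and stood at 5.04 ± 0.123 and 8.36 ± 1.05 in PPARγ/+ cells (log2 0.71, adjusted p = 0.00120, under 2-fold). The mitotic cyclins Ccnb1 and Ccnb2 fell the most in WT cells, with log2 changes of -3.98 and -3.58, and fell in PPARγ/+ cells as well, with -3.96 and -3.52. Ccnd2 was at -0.36 and -0.18 and was not called.

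The INK4 targets themselves, Cdk4 and Cdk6, are added here although chosen after their values were seen. Cdk4 averaged 102 ± 2.20 FPKM in WT_0d and 50.9 ± 6.72 in WT_5d (log2 -1.01, adjusted p = 9.91e-04), and 79.6 ± 5.80 and 50.8 ± 2.05 in PPARγ/+ cells (log2 -0.65, adjusted p = 4.19e-04, under 2-fold). Cdk6 fell in WT cells from 5.99 ± 1.46 to 2.63 ± 0.495 FPKM (log2 -1.15, adjusted p = 0.00777), a call lost without WT_5d replicate 3. In PPARγ/+ cells Cdk6 stood at 3.30 ± 0.618 and 3.19 ± 0.154 FPKM (log2 -0.04, adjusted p = 0.871).

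All 18 E2F target genes of S phase fell in WT cells and all 18 in PPARγ/+ cells, with medians of -2.14 and -1.65 on the log2 scale. Mcm5, a subunit of the replicative helicase, changed by -3.29 and -2.85, and the thymidine kinase Tk1 by -2.96 and -2.67. At the other end, Rrm1, a subunit of ribonucleotide reductase, changed by -1.52 and -1.56, and the clamp loader subunit Rfc3 by -1.30 and -1.25. Mcm4 was the 1 gene of this list called in the interaction.

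Of 18 E2F and DP factors and MuvB subunits, 0 rose and 8 fell in each cell type (medians -0.52 and -0.45). Among those that fell, the repressor E2f7 changed by -3.30 and -3.02 and Mybl2, which takes over the MuvB core in cycling cells, by -3.51 and -2.51. The E2F partners most bound by p130 and p107, E2f4 and E2f5, chosen after their values were seen, were at -0.07 and -0.09 in WT cells and at -0.07 and -0.13 in PPARγ/+ cells. E2f2 averaged 5.12 ± 1.19 FPKM in WT_0d and 7.70 ± 3.49 in WT_5d against 1.20 ± 0.275 and 1.88 ± 0.325 in PPARγ/+ cells, and was called as lower in PPARγ/+ cells on 0d (log2 -2.01, adjusted p = 0.00735) and on 5d (log2 -1.86, adjusted p = 0.0206). Tfdp2 was at 0.13 and 0.11 between days.

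Of 12 parts of ubiquitin ligases that act on cell cycle proteins, CDK inhibitors among them, 0 rose and 5 fell in each cell type (medians -0.47 and -0.53). Cdc20, an activator of the anaphase-promoting complex, fell with log2 changes of -3.96 and -4.08, and Cks1b, which helps Skp2 to bind p27, with -2.25 and -1.77. Skp2, the F-box protein for p27, named after its values were seen, fell with -1.60 and -1.12. Fbxw7 was at 0.53 and 0.14 and Skp1a at 0.25 and 0.09, and neither was called.

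Of 15 tested transcription factors and chromatin proteins known to bind the promoters of Cdkn1a, Cdkn1b or the Cdkn2 genes, 3 rose in each cell type. In both, 1 fell, the chromatin protein Ezh2. Myog rose from 6.62 ± 7.89 to 192 ± 92.7 FPKM in WT cells (log2 5.40, adjusted p = 0.00473) and from 1.65 ± 1.38 to 85.0 ± 5.80 in PPARγ/+ cells (log2 5.90, adjusted p = 2.00e-04). Trp63 rose by 3.84 and 2.75 on the log2 scale, from 0.0371 ± 0.0233 to 1.96 ± 0.784 FPKM in WT cells and from 0.0750 ± 0.0440 to 1.06 ± 0.172 in PPARγ/+ cells, and the size of its change depends on the 0.1 FPKM added before the log. Myod1 also rose, by 1.31 in WT cells (adjusted p = 0.0708) and 1.60 in PPARγ/+ cells. The Polycomb methyltransferase Ezh2, which represses the Cdkn2a locus in many cells, fell with log2 changes of -1.49 and -1.44. Trp53 was at -0.93 in WT cells and -0.62 in PPARγ/+ cells, under 2-fold in both, and in WT cells Trp53 and Myc were also called as falling without WT_5d replicate 3.

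Of 9 chromatin partners of the pocket proteins, 0 rose and 2 fell in each cell type, the histone methyltransferase Suv39h1 with log2 changes of -1.78 and -1.66 and Rbbp8 with -1.69 and -1.50. Smarca2, a remodelling ATPase, was at 0.99 and 0.79 and Sin3b at 0.04 and -0.10. Of 10 other cell cycle brakes, 3 rose and 3 fell in WT cells and 2 rose and 3 fell in PPARγ/+ cells. Gadd45a rose from 14.9 ± 4.83 to 55.0 ± 3.64 FPKM in WT cells (log2 1.93, adjusted p = 0.00213) and by 1.37 on the log2 scale in PPARγ/+ cells. Btg2 rose by 1.70 and 1.74. Cdkn3, a phosphatase of CDKs that is no inhibitor of the INK4 or CIP/KIP kind, fell with log2 changes of -3.16 and -3.85, and the Cdk1 kinase Pkmyt1 with -2.11 and -2.02.

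Between cell types, 4 genes of these lists were called on 0d, all lower in PPARγ/+ cells: Ccne1, the cyclin of Cdk2, the licensing factor Cdc6, the repressor Hes1, and E2f2, which was also called on 5d. The lists hold 12, 18, 18, 12, 15, 9 and 10 tested genes. Calls on 0d were mostly lower over all tested genes too, with 1.39% lower and 0.571% higher in PPARγ/+ cells. On 5d these shares were 0.533% and 0.571%. Without WT_5d replicate 3, Ccnd3 and Trp63 were called on 5d as well, and Ccnd3, Cdk4 and Myc in the interaction. In that setting the calls over all 18023 tested genes also rose, to 796 on 5d and 527 in the interaction.

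**Figure D5:**
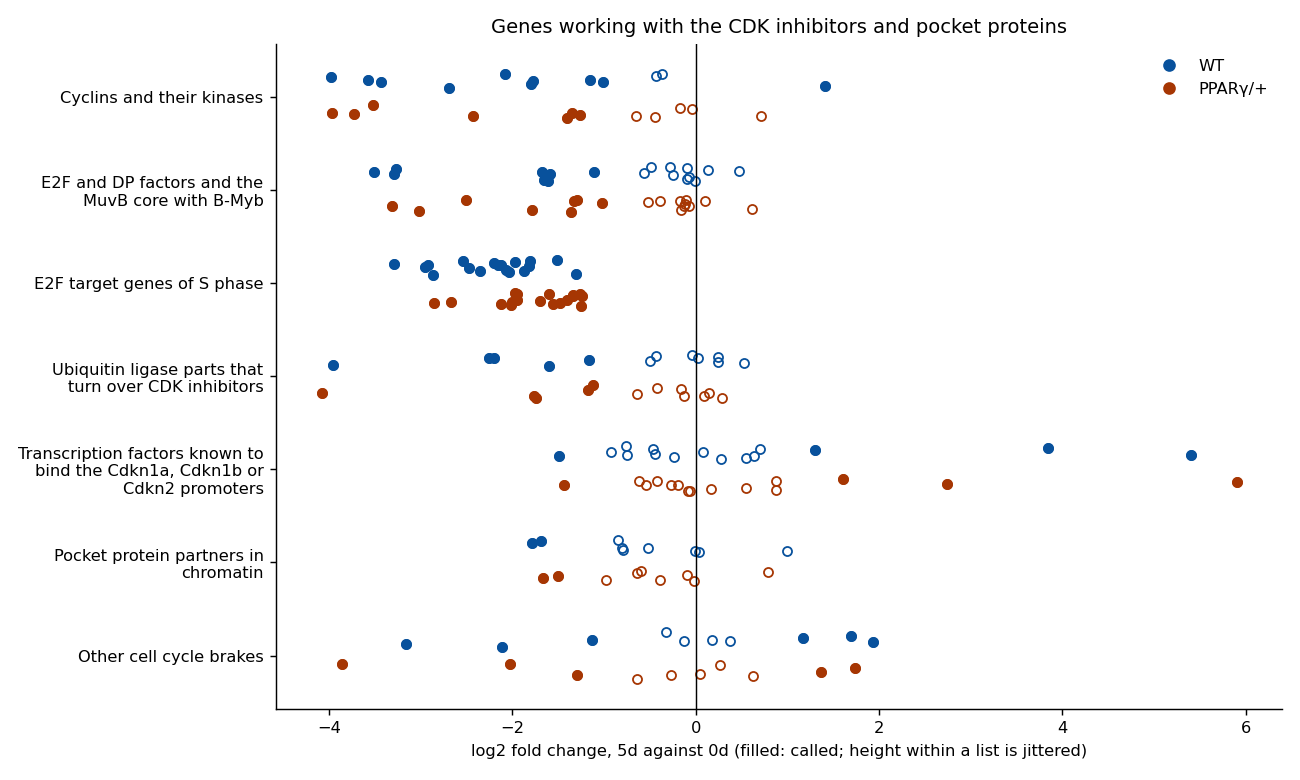
Change from 0d to 5d on the log2 scale for each tested gene of the 7 lists, in WT and PPARγ/+ cells; filled dots passed the thresholds, and the height of a dot within its list carries no value. All 18 E2F target genes of S phase are filled and lie left of -1, and Myog lies at 5.40 in WT cells and 5.90 in PPARγ/+ cells.

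The genes most like each member were sought among 11681 genes with a mean of at least 1 FPKM, by Pearson r on the log2 scale over the 12 libraries. These values are descriptions, since the libraries form 4 groups and share the day. For Cdkn1a they were Pgam2, a muscle enzyme of glycolysis (r = 0.989), Rap1gap2 (0.988) and Slc4a3 (0.984). For Rbl1 they were Atad2, Dck and Prim2, at 0.996 each, of which Prim2 is a primase subunit. Cdkn2c was followed by Adam10 (0.996), Neurl1b (0.994) and Trim59 (0.992), and Cdkn2d by Myo1c (0.992), Cdkn3 (0.989) and Cox7a2 (0.988). For the members that were not called, the highest r was 0.967 for Rb1 with Smim5 and 0.982 for Rbl2 with Naa60. It was 0.956 for Cdkn1c with Krba1 and 0.944 for Cdkn1b with Ift52. Between members, Cdkn2c and Rbl1 had an r of 0.949 and Cdkn1a and Rbl1 one of -0.864.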

How the data were processed

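Total RNA of the 12 libraries was sequenced after a kit that does not mark strand as far as it is named. The authors aligned reads with STAR to the mouse genome (GRCm38 in the methods, mm9 in the labels) and counted them per Ensembl gene with HTSeq. The deposited FPKM, made by the authors from these counts, were used. A deposited table of log2(FPKM + 1) held the same values (largest difference 5.3e-14) and was not analysed further. Sense and antisense reads of overlapping genes cannot be told apart. Gene positions come from GENCODE M21 (GRCm38).

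Fragments per library were recovered from the steps of the FPKM. The annotated length gave whole numbers, within 0.02, for 21320 of 27138 genes, an inferred length for 5816, and 2 gave none. Where the length was inferred, as for Cdkn1a, Cdkn1c, Cdkn2d and Rbl2, the fragments are the fewest the steps allow. Depth was 15557793 to 22013041 fragments on genes, and floors are 3 fragments. Intervals and floors cover no error beyond the libraries at hand.

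Tests were made with limma 3.58.1 (R 4.3.3; empirical Bayes with trend) on log2(FPKM + 0.1) of the 18023 genes with at least 0.1 FPKM in at least 3 libraries, so fold changes of low genes are understated. Days were compared within the 6 libraries of a cell type, and cell types and the interaction within all 12. Adjusted p-values are Benjamini-Hochberg over all genes tested. The scripts were tested on simulated data. Recovery and summaries ran in Python 3.11.15 (pandas 2.3.3, numpy 2.4.6), and figures were drawn in matplotlib 3.10.9. Named partner genes are the 2 highest and 2 lowest changes in WT cells of each list, among genes with a mean of at least 1 FPKM in a group. The members, lists and thresholds were chosen with earlier results of these data known, and the removal of 1 library was given special weight for the same reason. Alternatives covered the pseudocount, the filter, scaling, the replicate number as a block, voom, the call rule and each library left out.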

Additional observations from a re-analysis of the deposited data

How the results depend on the processing

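The 4 members called in each cell type between days were the same genes under every alternative tried except 1: Cdkn1a in PPARγ/+ cells was at 0.941 on the log2 scale without PPARγ/+_0d replicate 1. Of 736 values of single members under alternatives, 718 kept their direction and their side of the thresholds, 13 changed sign, 4 gained a call and 1 lost it. Cdkn1b moved to 0.0707 in WT cells and 0.0295 in PPARγ/+ cells under median-ratio scaling and to 0.071 and 0.0542 under quantile normalization. With single libraries left out it ranged from -0.237 to 0.0709 in WT cells and from -0.171 to 0.137 in the interaction, Cdkn1a on 0d from -0.0292 to 0.339, Cdkn2c on 5d from -0.0324 to 0.0389, and the interaction of Cdkn1c from -0.0671 to 0.546. Members called ranged from 0 to 1 on 5d and from 0 to 3 in the interaction, in both cases highest without WT_5d replicate 3.

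Counts over all genes moved more. With a pseudocount of 1 they were 1441 in WT cells (2970 as reported), 1241 in PPARγ/+ cells (2735), 120 between cell types on 0d (353) and 95 on 5d (199). A filter at 1 FPKM gave 1806 in PPARγ/+ cells and 93 on 5d, out of 12290 genes tested instead of 18023. The interaction had 137 genes as reported and 91 with voom. With the replicate number as a block it had 61, and the block changed no call of a member. Deviations of same-numbered libraries correlated at -0.0678 to 0.0834, so the numbers were not taken to pair samples. With 1 library left out, counts ranged from 180 to 491 on 0d (180 without PPARγ/+_0d replicate 2), 78 to 796 on 5d (78 without PPARγ/+_5d replicate 3, 796 without WT_5d replicate 3) and 42 to 527 in the interaction (42 without PPARγ/+_5d replicate 3, 527 without WT_5d replicate 3). Counts moved by over 1.5 times on 0d without PPARγ/+_0d replicate 2 or 3, on 5d without any of the 6 libraries of that day, and in the interaction without any library but WT_5d replicate 1. The cause was not tested. Under median-ratio scaling the change of the median gene was 0.02 in both cell types, where it had been -0.08 in WT and -0.10 in PPARγ/+ cells.

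Depth limits Cdkn1c, at 33 to 100 fragments, and leaves Cdkn2a and Cdkn2b with limits alone. RNA levels do not give the proteins, which for these inhibitors depend partly on degradation, and 3 libraries per group leave wide intervals in WT_5d.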
